A study of Rattus norvegicus with 10 samples.

Results

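Keratins are the intermediate filament proteins of epithelial cells. Each filament is built from pairs of 1 acidic type I and 1 basic or neutral type II keratin, so the genes are expressed in matching pairs that differ by cell type. In salivary glands Krt8 and Krt18 form the network of acinar and duct cells, Krt7 and Krt19 are known from ducts, and Krt5, Krt14 and Krt17 mark basal duct cells and myoepithelial cells. Other keratins belong to skin, oral mucosa, hair and nail. The keratin genes examined here were those with a symbol of Krt followed by a number and an optional letter. Only genes with a probe matched to them by RefSeq accession were included. They numbered 44 of 15168 named genes on the array, 24 of type I and 20 of type II, and 43 of them were among the 14711 genes tested. The reference gene table held 54 keratin symbols, of which 10 had no probe matched by accession. Whether the array holds probes for these 10 under other names was not examined. On the GRCr8 assembly 23 of the type I genes lay on chromosome 10, while the type I gene Krt18 lay with the 20 type II genes on chromosome 7.

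The glands came from 5 spontaneously hypertensive rats (SHR), an inbred line in which blood pressure rises with age, and from 5 Wistar-Kyoto (WKY) rats that served as controls of matched age and weight. All were males aged 14 weeks, with no treatment in the labels. RNA of the whole submandibular gland of each rat was labelled with Cy3 and hybridised to 1 Agilent 1-colour array. The labels give each array as a separate rat, named here by its number, such as SHR 3-3. Strain was the only comparison, so a difference between these groups is one between strains and is not separated from blood pressure.

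A level is the log2 intensity of a probe minus the 75th percentile of its array, so a level of 0 is as bright as that percentile and a difference of 1 is 2-fold. Levels are listed in the order 2-1, 2-3, 3-1, 3-3 and 3-4 for SHR, and 1-2, 1-3, 1-5, 4-1 and 4-2 for WKY. Because probes differ in brightness for reasons other than abundance, levels are compared only between arrays and not between genes. The tissue is a mixture of cells, so fewer cells of a type and less RNA per cell cannot be told apart.

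Of all genes tested, 4.36% differed between the strains (limma, Benjamini-Hochberg adjusted p below 0.05), 1.51% higher and 2.85% lower in SHR. The arrays had been scanned in 3 passes, taken as slides. Slide 1 held SHR 2-3, 3-1, 3-3 and 3-4, slide 2 held SHR 2-1 with WKY 1-5, 4-1 and 4-2, and slide 3 held WKY 1-2 and 1-3. Strain and slide are thus nearly confounded, and slide 2 alone holds both strains. Among the SHR arrays 1 was unlike the rest: SHR 3-3 had 420 genes at least 2-fold below and 90 at least 2-fold above the mean of its strain's remaining arrays. On the other arrays of either strain 10 to 45 genes were that far below, and 7 to 102 that far above, the rest of their strain. SHR 3-3 was also the dimmest array, with a 75th percentile of intensity of 333 against 431 to 648 on the others. The part of brightness in its departures was not tested. Between 94.8% (SHR 3-3, with SHR 3-4 at 94.9%) and 97.7% of spots per array were well above background and no keratin spot was saturated. All 7 acinar, 9 duct and 8 myoepithelial marker genes measured passed the background filter. So did 14711 of all 15168 named genes and all 6 markers of squamous epithelium and skin. Passing the filter therefore does not show that cells of a type are present.

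To show the start regions of the genes on which the results turn, 300 bases of reference sequence (RefSeq, GRCr8) are given. They run from 250 before to 50 after the annotated start. Shown are the only keratin that passed the test and the partner pair of the gland, Krt8 and Krt18. Capitals mark matches to 4 motifs searched on both strands.
Krt40, chr10:84998849-84999148, minus strand: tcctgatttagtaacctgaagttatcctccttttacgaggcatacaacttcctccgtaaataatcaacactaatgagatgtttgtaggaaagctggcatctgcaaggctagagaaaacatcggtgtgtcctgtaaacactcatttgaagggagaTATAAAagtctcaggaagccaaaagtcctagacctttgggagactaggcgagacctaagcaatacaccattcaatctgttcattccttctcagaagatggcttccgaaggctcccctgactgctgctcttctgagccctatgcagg
Krt8, chr7:135010290-135010589, minus strand: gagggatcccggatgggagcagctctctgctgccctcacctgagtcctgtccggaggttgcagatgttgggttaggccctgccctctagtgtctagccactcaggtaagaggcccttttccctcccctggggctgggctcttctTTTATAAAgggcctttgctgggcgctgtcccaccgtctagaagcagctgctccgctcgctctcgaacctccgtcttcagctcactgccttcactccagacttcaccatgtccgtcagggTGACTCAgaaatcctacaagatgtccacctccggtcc
Krt18, chr7:135035918-135036217, plus strand: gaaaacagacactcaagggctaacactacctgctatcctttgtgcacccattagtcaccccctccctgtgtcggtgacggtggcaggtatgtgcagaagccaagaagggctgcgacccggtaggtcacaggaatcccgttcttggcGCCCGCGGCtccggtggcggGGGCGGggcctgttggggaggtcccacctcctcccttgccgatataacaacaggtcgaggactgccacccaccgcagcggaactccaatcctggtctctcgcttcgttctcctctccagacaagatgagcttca
In Krt40 the capitals are a match to the TATA box at position -96 from the annotated start. In Krt8 they are 2 overlapping matches to the TATA box, 1 on each strand, and a match to the AP-1 site at position 13, after the annotated start. In Krt18 they are an AP-2 site followed by a GC box. From the annotated start on, the Krt40 and Krt8 sequences begin with atg, the letters of a start codon. In Krt18 an atg comes later. The Krt40 and Krt8 positions are thus counted from a possible start codon, and the Krt8 AP-1 match may lie in coding sequence. Where transcription starts was not checked. Of the 44 keratins 33 had such a sequence in the table. The TATA box (TATAAA) was present in 17 of them (51.5%) against 14.2% of 33469 promoters of the same length. The GC box (GGGCGG) was present in 6 (18.2%) against 33.1%, the AP-1 site (TGANTCA) in 2 (6.06%) against 7.33% and the AP-2 site (GCCNNNGGC) in 5 (15.2%) against 15.1%. Keratin genes are neighbours and copies of each other, so their promoters are not independent, and a match is not evidence of binding. The arrays did not measure the promoters.

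Across the family, the share of keratins that differed between SHR and WKY was near that of all genes. Krt40 was higher in SHR and 0 keratins were lower, 1 of 43 against 4.36% of all genes. At an unadjusted p below 0.05 in the limma fit, 10 of 43 keratins were counted, 4 higher and 6 lower, where 20.3% of all genes were counted. The strains did not overlap in 4 of 43 keratins, against 7.25% of all genes. These were Krt15 and Krt40, higher in every SHR array than in any WKY array, and Krt27 and Krt88, lower in every SHR array. No keratin reached a 2-fold difference, against 1.05% of all genes. The median absolute difference was 0.15 over the keratins and 0.13 over all genes. The median difference, SHR minus WKY, was -0.05 over the keratins and -0.02 over all genes, with 18 keratins above and 25 below 0. Within slide 2, where SHR 2-1 stands against 3 WKY arrays, the median was 0.08 over the keratins and 0.03 over all genes. There 28 keratins lay above and 15 below 0, and the share of all genes above 0 was not counted. Differences ran from -0.88 for Krt33b to 0.66 for Krt80. For 39 of 43 keratins the 95% confidence interval lay within 2-fold in both directions, which bounds the difference but does not show that the strains are alike.

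**Figure D1:**
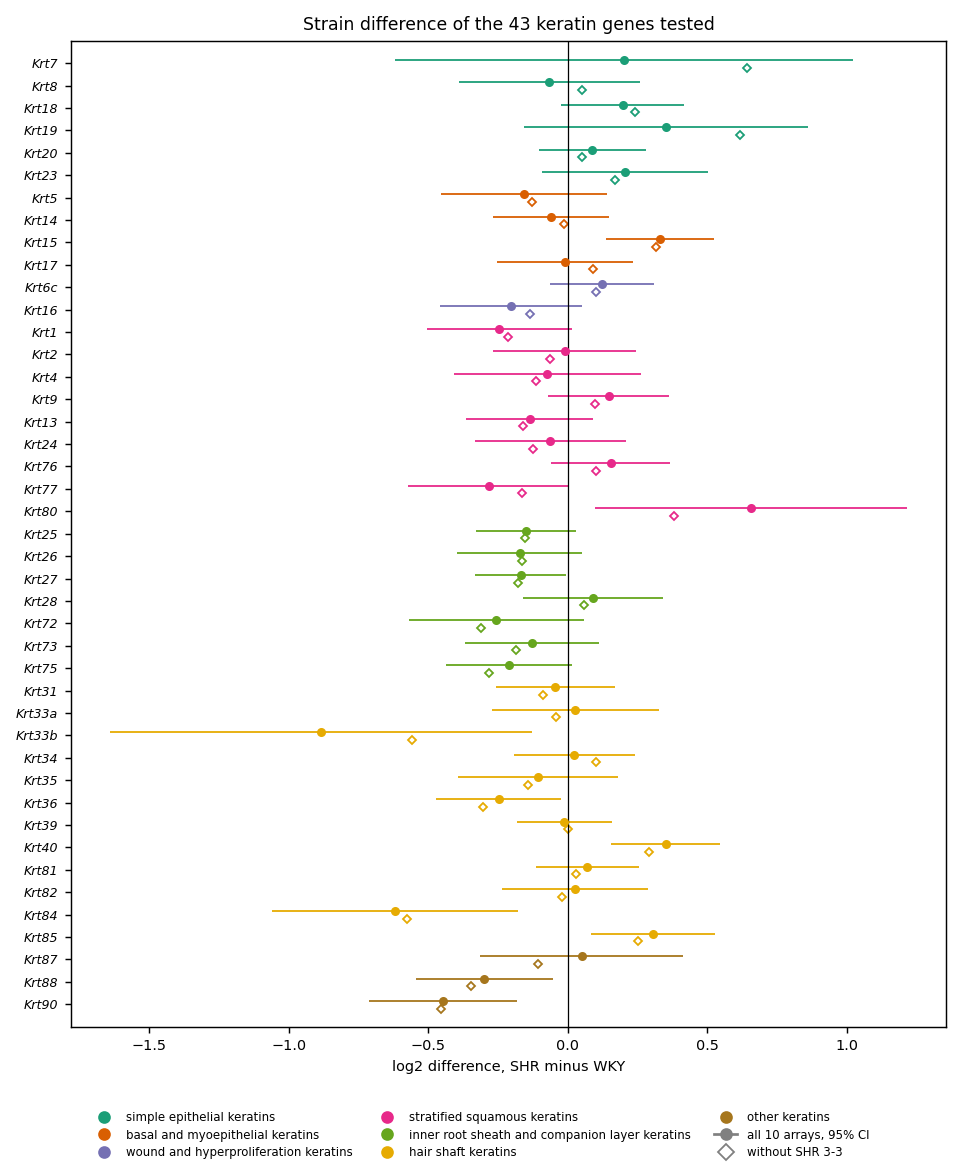
Strain difference of each of the 43 keratin genes tested, SHR minus WKY on the log2 scale, coloured by class. Filled points and bars are the limma estimate and its 95% confidence interval over 10 arrays, and open diamonds are the estimate without SHR 3-3; most intervals cross 0, and the diamonds of Krt7 and Krt19 lie to the right of their filled points, at 0.64 and 0.62.

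The simple epithelial keratins, those of the gland's secretory and duct cells, are described first. Of 6 measured (Krt7, Krt8, Krt18, Krt19, Krt20 and Krt23), 0 passed the test and 0 had an unadjusted p below 0.05 (limma). Their median difference was 0.20, with 5 above and 1 below 0.

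Krt8, the type II partner in these cells, had levels of 1.49, 1.58, 1.74, 0.96 and 1.34 in SHR and 1.46, 1.44, 1.31, 1.35 and 1.87 in WKY. The lowest value was that of SHR 3-3 and the highest that of WKY 4-2, and the strains overlapped. The difference was -0.07 ± 0.15 (SE; 95% interval -0.39 to 0.26; limma adjusted p = 0.847). Krt18, its type I partner, had levels of 5.15, 5.01, 5.07, 4.95 and 5.46 in SHR and 4.93, 4.89, 4.88, 4.93 and 5.04 in WKY. SHR 3-4 was highest, and 2 of the SHR arrays lay below the highest WKY array. The difference was 0.20 ± 0.10 (SE; 95% interval -0.02 to 0.41; limma adjusted p = 0.300).

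Krt7, a type II keratin of ducts, was set apart by 1 array. Its levels were 2.10, 1.61, 2.19, -0.14 and 2.33 in SHR and 1.34, 1.38, 1.42, 1.54 and 1.42 in WKY. All SHR arrays but SHR 3-3 lay above every WKY array, and SHR 3-3 lay below them all. Over 10 arrays the difference was 0.20 ± 0.38 (SE; 95% interval -0.62 to 1.02; limma adjusted p = 0.812). Without SHR 3-3 it was 0.64 ± 0.13 (SE; 95% interval 0.36 to 0.92; limma adjusted p = 0.0154), which is 1.56-fold. Within slide 2 it was 0.64.

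Krt19, a type I keratin of ducts that lacks the usual tail, followed the same pattern. Its levels were -0.69, -0.58, -0.64, -1.96 and -0.64 in SHR and -1.19, -1.56, -1.21, -1.21 and -1.09 in WKY. The SHR arrays other than SHR 3-3 lay close together and above every WKY array. The difference was 0.35 ± 0.23 (SE; 95% interval -0.16 to 0.86; limma adjusted p = 0.426) over 10 arrays. It was 0.62 ± 0.10 (SE; 95% interval 0.40 to 0.83; limma adjusted p = 0.00393) without SHR 3-3, or 1.53-fold, and 0.48 within slide 2. Krt7 and Krt19 were the 2 keratins of 43 that passed the test without SHR 3-3, where 4.92% of all genes passed, 1.6% higher and 3.32% lower in SHR. In that fit the Krt40 difference was 0.29 with an adjusted p of 0.0555. The strains then did not overlap in 8 of 43 keratins, against 9.68% of all genes, and 14 of 43 had an unadjusted p below 0.05, against 20.9%.

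The remaining simple keratins differed by 0.20 ± 0.14 for Krt23 (SE; 95% interval -0.09 to 0.50; limma adjusted p = 0.425) and by 0.09 ± 0.09 for Krt20 (SE; 95% interval -0.10 to 0.28; limma adjusted p = 0.612). Krt20 is best known from intestinal and urothelial lining. Levels of both overlapped between the strains.

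**Figure D2:**
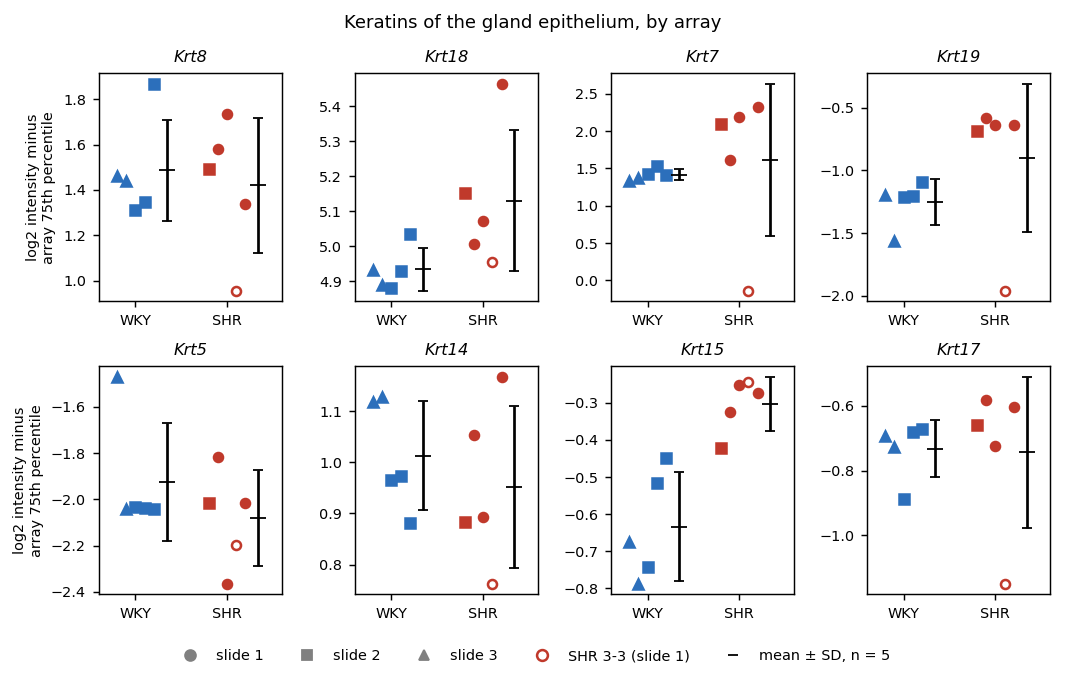
Levels of 8 keratins of the gland epithelium in each array, as log2 intensity minus the array's 75th percentile, with a scale of its own for each gene. Point shapes give the slide, the open circle is SHR 3-3, and bars are the mean ± SD of 5 arrays per strain; SHR 3-3 is the lowest array for Krt7, Krt8, Krt14, Krt17 and Krt19, while for Krt15 every SHR array lies above every WKY array.

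SHR 3-3 also had low values in some other duct genes. Relative to the mean of the other 4 SHR arrays, it was -2.20 for Krt7, -1.32 for Krt19 and -0.58 for Krt8. On the same scale it was -4.31 for Egf, a growth factor of granular duct cells, -2.56 for the chloride channel gene Cftr and -2.45 for Foxi1, the factor of ionocytes. These were the 3 of 9 duct markers at least 2-fold below. The other 6 ran from -0.49 for Scnn1a to 0.43 for Elf5, and the median over the 9 was -0.48, with 8 below 0. The mean level of the 9 markers, which those 3 genes lower most, was 0.98 on SHR 3-3, against 2.04 to 2.20 on the WKY arrays and up to 2.27 on SHR arrays. The part of duct content in the Krt7 and Krt19 values was not tested.

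The 8 myoepithelial markers on SHR 3-3 had a mean level of 1.16, the lowest of the SHR arrays, which reached 1.46. The WKY arrays ranged from 1.13 to 1.31. Acinar markers went the other way, with a median departure of 0.31 over the 7 on SHR 3-3, 6 above and 1 below 0. Their mean level on SHR 3-3, 3.11, was the highest of the SHR arrays. Over all genes tested the median departure of SHR 3-3 was 0.13, so departures are read against that value.

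Keratins did not all go down on that array. Krt80 was 1.37 above and Krt87 0.78 above the mean of the other SHR arrays, while Krt33b (-1.63), Krt77 (-0.60) and Krt17 (-0.51) were below it. At least 2-fold departures of SHR 3-3 were thus Krt7, Krt19 and Krt33b downward and Krt80 upward. The median departure was -0.40 for the 6 simple epithelial keratins, -0.19 for the 4 basal keratins and 0.24 for the 9 stratified squamous keratins. The median over all 43 keratins was 0.16.

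**Figure D3:**
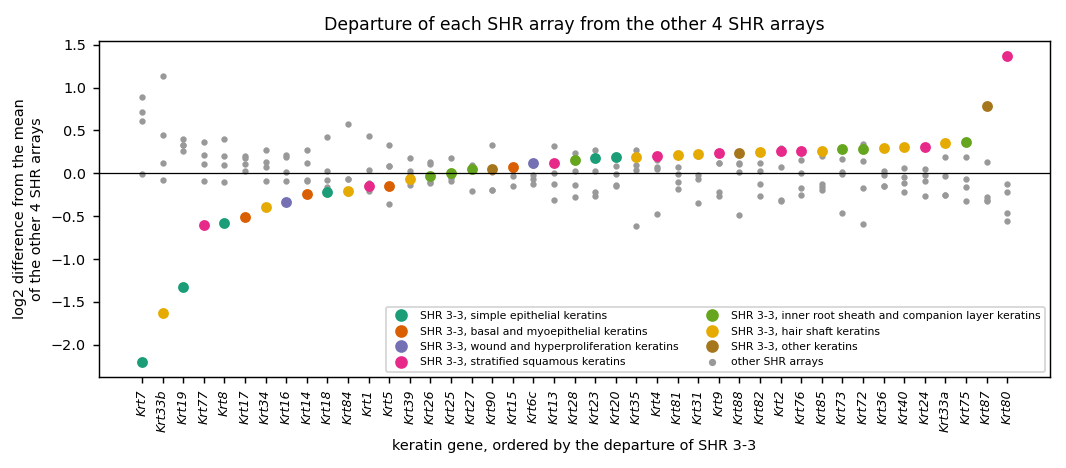
Departure of each SHR array (log2 scale) from the remaining 4 arrays' mean for the 43 keratin genes, ordered by the value of SHR 3-3. Coloured points are SHR 3-3, by keratin class, and grey points are the other arrays; SHR 3-3 departs most for Krt7 (-2.20), Krt33b (-1.63), Krt19 (-1.32) and Krt80 (1.37).

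The basal and myoepithelial keratins, which line the outer layer of ducts and the contractile cells around acini, showed 0 of 4 past the test. Krt15, a type I keratin of basal cells, came nearest, with the only unadjusted p below 0.05 (limma). Its levels were -0.42, -0.32, -0.25, -0.24 and -0.27 in SHR and -0.68, -0.79, -0.74, -0.51 and -0.45 in WKY. Every SHR array lay above every WKY array, with SHR 2-1 and WKY 4-2 nearest to each other. The difference was 0.33 ± 0.09 (SE; 95% interval 0.14 to 0.52; limma adjusted p = 0.0564), or 1.26-fold. It was 0.15 within slide 2.

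Krt5, the type II keratin of basal cells, had levels of -2.02, -1.82, -2.37, -2.20 and -2.02 in SHR and -1.47, -2.04, -2.03, -2.04 and -2.04 in WKY. WKY 1-2 lay above the rest, and the other WKY arrays lay within the SHR range. The difference was -0.16 ± 0.14 (SE; 95% interval -0.45 to 0.14; limma adjusted p = 0.552), and 0.02 within slide 2. Krt14, the type I partner of Krt5, had levels of 0.88, 1.05, 0.89, 0.76 and 1.17 in SHR and 1.12, 1.13, 0.96, 0.97 and 0.88 in WKY. The ranges overlapped, and the difference was -0.06 ± 0.10 (SE; 95% interval -0.27 to 0.15; limma adjusted p = 0.770).

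Krt17, a type I keratin of basal and injured epithelium, had levels of -0.66, -0.58, -0.72, -1.15 and -0.60 in SHR and -0.69, -0.73, -0.89, -0.68 and -0.67 in WKY. SHR 3-3 was again the lowest, and the other arrays of both strains overlapped. The difference was -0.01 ± 0.11 (SE; 95% interval -0.26 to 0.23; limma adjusted p = 0.968) and its sign turned without SHR 3-3, to 0.09. The 8 myoepithelial markers, such as Acta2, the smooth muscle actin of these cells, had a median difference of 0.09, and 0 passed the test with 2 at an unadjusted p below 0.05 (limma).

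The keratins of wounded and hyperproliferative epithelium gave 0 of 2 past the test and 0 at an unadjusted p below 0.05 (limma). Krt16 was above background on 3 of 5 SHR and 5 of 5 WKY arrays, and its difference was -0.20 (adjusted p = 0.349). Krt6c was measured by 3 probes whose differences did not agree in size. Its brightest probe gave 0.12 ± 0.09 and another gave 0.19 ± 0.09 (SE), with adjusted p-values of 0.453 and 0.279 over all named probes (limma). The dimmest gave 0.66 ± 0.15 (SE; adjusted p = 0.0324). The Krt6 genes are near-identical copies that can share signal, and the probe sequences were not used here.

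Among the 9 keratins of stratified squamous epithelia, such as oral mucosa and epidermis, 0 passed the test and 1 had an unadjusted p below 0.05 (limma). Their median difference was -0.06, with 3 above and 6 below 0, but 7 above and 2 below within slide 2. That one was Krt80, a type II keratin found near desmosomes in differentiating epithelia, with levels of 1.47, 1.20, 1.13, 2.67 and 1.4 in SHR and 1.12, 0.72, 1.23, 0.57 and 0.94 in WKY. SHR 3-3 lay far above all other arrays, and the strains overlapped. The difference was 0.66 ± 0.26 (SE; 95% interval 0.10 to 1.21; limma adjusted p = 0.174). It was 0.38 (adjusted p = 0.141) without SHR 3-3 and 0.56 within slide 2.

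Krt1, the type II keratin of the upper epidermis, was above background on 1 of 5 SHR and 4 of 5 WKY arrays. Its difference was -0.25 ± 0.12 (SE; limma adjusted p = 0.274). Krt4 and Krt13, the pair of oral and oesophageal lining, differed by -0.07 (adjusted p = 0.830) and -0.14 (adjusted p = 0.494). Of the non-keratin markers of squamous epithelium and skin, 6 were measured and 0 passed the test, with 1 at an unadjusted p below 0.05 (limma). Their mean level was -2.09 to -1.76 in SHR and -1.89 to -1.71 in WKY arrays.

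The keratins of the inner root sheath and companion layer of the hair follicle mostly had differences below 0 that did not pass the test. Of 7 measured, 0 passed and 1 had an unadjusted p below 0.05 (limma). The median difference was -0.17, with 1 above and 6 below 0, beside 46.6% above 0 among all genes. Within slide 2 the median was 0.05, with 4 above and 3 below 0. Over 10 arrays the differences ran from -0.26 for Krt72 to 0.09 for Krt28. Krt27, a type I keratin of the inner root sheath, had levels of -1.60, -1.60, -1.78, -1.58 and -1.54 in SHR and -1.44, -1.42, -1.48, -1.44 and -1.48 in WKY. It is named because its strains did not overlap, which was seen before it was chosen. The difference was small, -0.17 ± 0.07 (SE; limma adjusted p = 0.221), and -0.13 within slide 2.

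The hair shaft keratins held the only difference past the threshold. Of 12 measured, 1 was higher, 0 were lower and the median difference was 0.00, with 6 above and 6 below 0. At an unadjusted p below 0.05 (limma) 5 were counted, 2 higher and 3 lower, beside 20.3% of all genes. Krt40, a type I keratin of the hair cuticle, had levels of -2.94, -3.08, -3.17, -2.75 and -3.03 in SHR and -3.31, -3.39, -3.4, -3.29 and -3.34 in WKY. Every SHR array lay above every WKY array, SHR 3-3 highest, and the WKY arrays spanned a narrow range. The mean was -3.0 ± 0.16 in SHR and -3.35 ± 0.05 in WKY (SD, n = 5 each). Krt40 was 0.35 ± 0.09 higher in SHR (SE; 95% interval 0.16 to 0.54; limma adjusted p = 0.0473), or 1.27-fold.

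The Krt40 call was a narrow one. Leaving out any 1 array other than SHR 3-1 put the limma adjusted p above 0.05, at 0.0555 to 0.115, while the difference stayed between 0.29 and 0.39. Within slide 2 it was 0.40. Its signal was dim, with intensities of 41.0 to 75.8, but well above background on all 10 arrays. It also exceeded the 95th percentile of the negative control spots, which was 4.32 at most. So did Krt42, which was not well above background on any array, so exceeding that percentile says little about the Krt40 signal.

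Of the other hair keratins only Krt84 and Krt33b gave larger differences than Krt40, with wider errors. Krt84, a type II hair-type keratin known from tongue papillae, had levels of -1.0, -1.65, -1.51, -1.63 and -1.51 in SHR and -0.49, -0.24, -0.99, -1.13 and -1.34 in WKY. The WKY arrays of slide 3 were the highest, and SHR 2-1, on slide 2, lay among the WKY arrays of its slide. The difference was -0.62 ± 0.20 (SE; 95% interval -1.06 to -0.18; limma adjusted p = 0.106) but 0.15 within slide 2, so its direction was opposite there.

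Krt33b, a type I keratin of the hair cortex, had levels of -1.80, -1.96, -1.55, -3.21 and -1.0 in SHR and -0.56, -0.55, -1.66, -1.10 and -1.22 in WKY. It varied widely within strains, with SHR 3-3 lowest and the slide 3 arrays highest. The difference was -0.88 ± 0.35 (SE; 95% interval -1.64 to -0.13; limma adjusted p = 0.175), -0.56 without SHR 3-3 and -0.48 within slide 2. Its close relatives Krt33a and Krt34 differed by 0.03 (adjusted p = 0.937) and 0.02 (adjusted p = 0.925). Krt85, a type II keratin of the hair matrix, differed by 0.31 ± 0.10 (SE; limma adjusted p = 0.113), and Krt36, of type I, by -0.25 ± 0.10 (SE; limma adjusted p = 0.196). The 2 other hair markers measured, Msx2 and Foxn1, gave 0 past the test and 0 at an unadjusted p below 0.05 (limma).

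Of the remaining keratins 3 of 4 were tested, with a median difference of -0.30. Of these, 0 passed the test and 2, each lower in SHR, had an unadjusted p below 0.05 (limma). Krt42, a type I gene that is inactive in humans, was not well above background on any of the 10 arrays. Krt90, a type II gene, had levels of -3.58, -4.0, -3.83, -3.80 and -3.99 in SHR and -3.09, -3.34, -3.61, -3.30 and -3.63 in WKY. SHR 2-1 overlapped with 2 of the WKY arrays on its slide, and the other SHR arrays were lower than all WKY arrays. The difference was -0.45 ± 0.12 (SE; 95% interval -0.71 to -0.18; limma adjusted p = 0.0602), but -0.07 within slide 2. Krt88, also of type II, differed by -0.30 ± 0.11 (SE; limma adjusted p = 0.158) and by -0.64 within slide 2. Krt87 differed by 0.05 (adjusted p = 0.900).

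**Figure D4:**
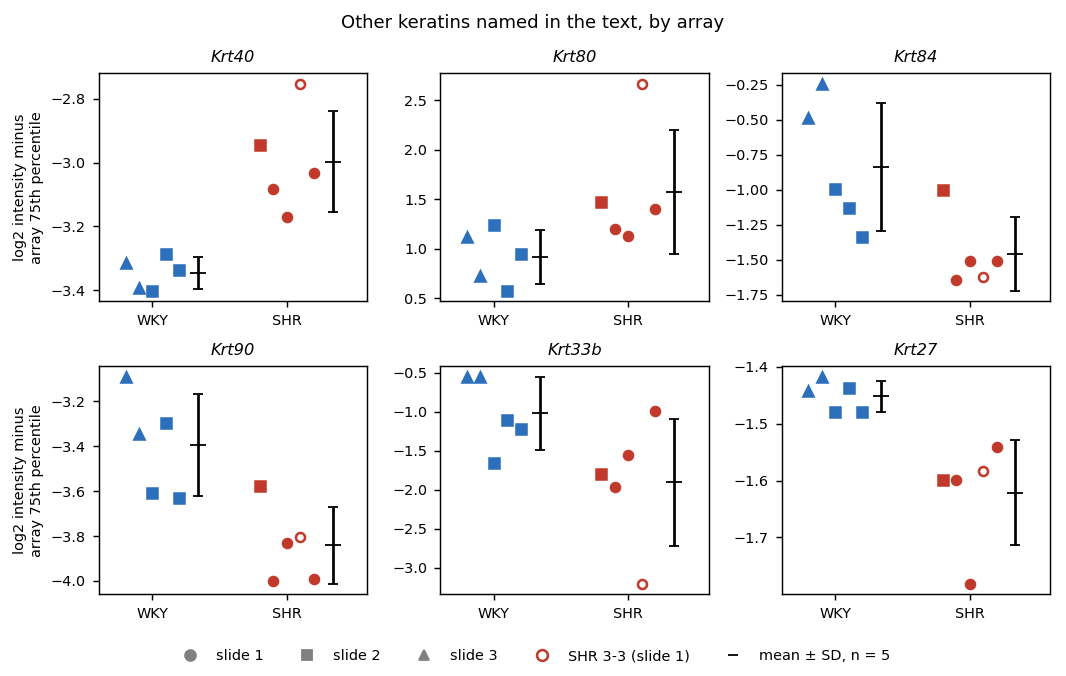
Levels of Krt40, Krt80, Krt84, Krt90, Krt33b and Krt27 in each array, as log2 intensity minus the array's 75th percentile, with a scale of its own for each gene. Point shapes give the slide, the open circle is SHR 3-3 and bars are the mean ± SD of 5 arrays per strain; SHR lies above WKY without overlap for Krt40 and below it for Krt27, and WKY arrays of slide 3 are the highest for Krt84 and Krt33b.

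The genes that anchor, accompany or regulate keratins were examined next, and 0 of 48 tested passed, with 11 at an unadjusted p below 0.05 (limma) beside 20.3% of all genes. Of 10 desmosome and plakin genes, which tie keratin filaments to cell junctions, 0 passed and 1 had an unadjusted p below 0.05 (limma). The desmosomal cadherin gene Dsg3 differed by 0.45 ± 0.30 (SE; adjusted p = 0.433) and Perp, a membrane protein of desmosomes, by -0.26 ± 0.08 (SE; adjusted p = 0.101). Of 4 hemidesmosome genes, which anchor keratins to the basement membrane, 0 passed and 0 had an unadjusted p below 0.05 (limma). The tetraspanin gene Cd151 differed by -0.36 (adjusted p = 0.283) and the integrin gene Itgb4 by 0.20 (adjusted p = 0.391).

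Of 14 other intermediate filament genes 0 passed, with 2 higher and 1 lower at an unadjusted p below 0.05 (limma). The nuclear lamin gene Lmnb1 differed by 0.49 ± 0.22 (SE; adjusted p = 0.233) and Synm, the synemin of muscle-type filaments, by 0.47 ± 0.14 (SE; adjusted p = 0.0719). Of 20 regulators and binding proteins 0 passed, with 3 higher and 4 lower at an unadjusted p below 0.05 (limma). The epithelial transcription factor genes Elf3 and Grhl2 differed by -0.63 ± 0.24 (SE; adjusted p = 0.160) and 0.51 ± 0.16 (SE; adjusted p = 0.0845). Without SHR 3-3, Synm was higher in SHR by 0.54 (adjusted p = 0.0346) and Grhl2 by 0.35 (adjusted p = 0.0447).

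Cell type markers that are no keratins give the tissue context, and their counts stand beside 4.36% of all genes past the test, 1.51% higher and 2.85% lower. Of 9 duct markers 1 was lower in SHR, the bicarbonate transporter gene Slc4a4, at -0.47 ± 0.10 (SE; limma adjusted p = 0.0176), and 0 were higher. Of 7 acinar markers 2 were higher, the secretory gene Oprpn at 0.61 and the immunoglobulin transporter gene Pigr at 0.39. The Pigr call was narrow (limma adjusted p = 0.0472) and was lost without SHR 3-3 (limma adjusted p = 0.0660). Lower was 1 acinar marker, the mucin-like secretory gene Smgc, at -4.10 ± 0.35 (SE). The median acinar difference was 0.33, with 5 above and 2 below 0. The mean level of the list, which includes Smgc, ran from 2.76 to 3.11 in SHR and from 3.08 to 3.49 in WKY, opposite in direction to the median. Of the mesothelial markers Msln was higher in SHR by 2.13 and Wt1 differed by -0.08 (adjusted p = 0.762). The part of cell composition in the keratin values was not tested.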

How the data were processed

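Total RNA of 10 submandibular glands, 5 SHR and 5 WKY, was hybridised to 1-colour arrays. The deposited scanner files come from Agilent Feature Extraction 11.0.1.1, per the file headers, and give for each spot a linear, background-subtracted processed intensity. A deposited table of the authors' log2 values for 30423 probes had a median of 7.19 in every column. Its columns correlated with the scanner values at 0.999 or more, across probes. Its making is not described in any source at hand, so it served as an alternative. The circular RNA profile named in the design text was not analysed here.

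Spots marked as outliers were dropped. The array's 75th percentile was subtracted from log2 intensities, repeated spots were averaged, and 29266 of 30367 probes were kept, those well above background on 5 or more arrays. Genes were named by matching RefSeq accessions to the GRCr8 gene table, which named 18005 probes and 15168 genes. The probe with the highest mean stood for a gene. The strains were compared with limma 3.58.1 in R 4.3.3 (lmFit and eBayes, no covariate, two-sided) over 14711 genes, with Benjamini-Hochberg adjustment and a threshold of 0.05. Of the values fitted 31 were missing. The fit was tested on simulated data. The number of arrays limits the precision.

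The keratins and the gene lists were chosen with earlier results of these data known. The text names keratins past the threshold, 8 gland keratins, the 4 other keratins with the largest differences and, of each partner list without a passing gene, the 2 largest; further keratins were named after their values were seen. Slides were inferred from scan passes. The strains share no replicate number in the labels. Alternatives were other normalisations (normexp with offset 50, quantile, median), the authors' values, other filters and probe rules, array weights, slide and name blocks, and leaving out each array. For normexp the median signal was used in place of the planned mean signal, which was not among the columns used here.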

Additional observations from a re-analysis of the deposited data

Results flagged for a closer look

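In 12 of 88 sets of 5 arrays (the 44 keratins in each strain) 1 array lay far from the other 4. The rule was Dixon's gap test at its 95% critical value of 0.71, for which chance alone gives about 4.4. The share flagged over all genes was not computed, so the count is not read as a trait of keratins. Of these 12, 3 were SHR 3-3, namely the highest level of Krt80 in SHR (2.67) and the lowest levels of Krt19 (-1.96) and Krt17 (-1.15). Krt84 was highest in SHR 2-1 (-1.0), the SHR array that shared its slide with WKY arrays. Lowest in their strain were also Krt4 in SHR 2-3 (-0.92), Krt27 in SHR 3-1 (-1.78), Krt35 in SHR 3-1 (-2.41), Krt17 in WKY 1-5 (-0.89) and Krt19 in WKY 1-3 (-1.56). Highest in their strain were Krt5 in WKY 1-2 (-1.47), Krt88 in WKY 1-2 (-1.23) and Krt8 in WKY 4-2 (1.87). The low level of Krt7 on SHR 3-3 (-0.14), which the text describes, was not among these.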

How the results depend on the processing

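The number of keratins past the threshold stayed small under most settings and its members changed; the causes were not tested. Higher in SHR were 3 keratins with quantile normalisation (5.25% of all genes passed), 3 with the authors' values (5.81%) and 2 with scaling to the median (4.91%). The count was 3 with array weights, with 1 lower (6.70%), 0 with no filter on dim probes (3.92%) and 0 with an intensity trend and robust fit (4.47%). It was 0 with slide as a block and 0 within slide 2, fits in which 0.299% and 0.353% of all genes passed. Leaving out 1 array at a time gave 0 to 2 higher and 0 to 1 lower, where 2.33% to 4.92% of all genes passed. With slide as a random block it was 4 higher and 8 lower, where 23.5% of all genes passed, and with the first number of the rat's name as a random block 3 higher and 2 lower, where 12.1% passed. Leaving out SHR 3-3 together with a random slide block, chosen after seeing the data, gave 4 higher and 3 lower, where 9.52% passed. The estimated within-block correlations were negative (-0.19, -0.16 and -0.12). Krt40 kept its direction under all 25 alternatives, from 0.24 to 0.43, and lost the threshold under 13. Krt15 kept its direction under all 25 and passed under 8, the random-block fits among them. Krt7 and Krt19 kept theirs, passing under 2 and 3. Krt7 passed only where SHR 3-3 was left out, and Krt19 there and with array weights. The alternatives use the same arrays and are not independent. Within slide 2, which is also what slide as a block compares, the keratin median was 0.078, beside 0.033 over all genes.

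Of the named keratins 5 changed sign under some setting, 4 with small differences (Krt5, Krt8, Krt14 and Krt17) and Krt84 with a large one. Krt17 was 0.021 with scaling to the median, 0.0044 with the authors' values, 0.067 with array weights, 0.086 with slide as a block or within slide 2, 0.093 without SHR 3-3 and with a random slide block, and -0.052 to 0.090 with 1 array left out. Krt8 was 0.0086 with array weights, 0.055 without SHR 3-3 and with a random slide block, and -0.15 to 0.050 with 1 array left out. Krt14 was 0.0035 without SHR 3-3 and with a random slide block. With slide as a block or within slide 2, Krt5 was 0.022 and Krt84 was 0.15. Of the 48 partner genes 1 passed with normexp (4.30% of all genes), 1 with quantile normalisation (5.25%) and 2 with the authors' values (5.81%). With array weights 2 passed (6.70%), with slide as a random block 11 (23.5%) and with the first name number as a random block 4 (12.1%). Leaving out 1 array gave 0 to 2, where 2.33% to 4.92% of all genes passed. No paired analysis was possible because the strains share no replicate number.

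Slide and strain overlap on 1 slide with 1 SHR array, so they can barely be told apart. Signal shared between keratin paralogs on a probe was not tested. With 5 arrays per strain the precision is limited, and a keratin that did not pass is not shown to be alike in both strains.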
